A study of Mus musculus with 14 samples.

Results

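The interferon-induced transmembrane genes Ifitm1, Ifitm2, Ifitm3 and Ifitm6 were followed in mouse lung as every probe set whose platform symbol is one of these names. The 4 genes had 1 probe set each, so 4 of the 45101 probe sets and 4 of the 18194 genes with a probe set of their own symbol were members, and all 4 were among the 10916 genes bright enough to be tested. The members were chosen by name, as a family, after the differences of Ifitm genes between 4T1 and normal lungs had been seen in these same arrays. The values of the 4 members in comparisons that use 4T1 arrays are therefore descriptions, without p-values, and their limma calls there restate the contrast that led to the choice. Members are tested in 67NR against normal lungs, and genes outside the family in every comparison. The normal arrays are shared with the contrast that led to the choice, so the member tests are not independent of it. A choice helped by low normal values would also raise the change in 67NR against normal lungs.

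The lungs came from BALB/c mice in 3 groups. In the 4T1 group (4 arrays) the metastatic mouse breast carcinoma line 4T1 had been placed in the fourth mammary fat pad. In the 67NR group (5 arrays) the related line 67NR, labelled non-metastatic, had been placed there. The normal group (5 arrays) had received PBS without cells. Lungs of the tumour groups were taken on day 6 or at a tumour volume of about 50 mm3, and no day was recorded here for the normal lungs. The vessels of every lung were flushed with PBS to remove blood. Each tumour class was 1 cell line, so metastatic ability and other differences between the lines cannot be told apart. The labels number the samples but do not say whether every sample was a separate mouse, and the tests rest on the spread between samples, which may be technical. In whole lung, more cells of a type and more RNA per cell cannot be told apart either.

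IFITM proteins are small membrane proteins of the CD225, or dispanin, family. Ifitm1, Ifitm2 and Ifitm3 are known for holding back the fusion of enveloped viruses with cell membranes, at the cell surface for IFITM1 and in endosomes for IFITM2 and IFITM3, and type I and type II interferons induce them in many cells. IFITM3 is also constantly present in many barrier tissues, the lung among them. Ifitm6 is a rodent member that is less studied and is known from bone marrow and myeloid cells.

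In the RefSeq annotation of GRCm38.p6 the 4 genes lie in 1 cluster on chromosome 7, in the order Ifitm5, Ifitm2, Ifitm1, Ifitm3 and Ifitm6, with a pseudogene and a noncoding RNA gene between Ifitm1 and Ifitm3. The genes that were higher in 4T1 lungs, Ifitm1 and Ifitm6, are thus not neighbours, since Ifitm3 lies between them. The RefSeq promoter windows of the 4 genes are shown because interferon-responsive genes often carry a short element near the start. Each window runs 5′ to 3′ along its gene, from 250 bases before the annotated start to 50 bases after it. Capitals mark matches to the interferon-stimulated response element, which is GAAA, any 2 bases and GAAA, or to the gamma-activated site, TTCNNNGAA, searched on both strands. The windows are chr7:140967826-140968125 on the plus strand for Ifitm1 and, on the minus strand, chr7:141016843-141017142 for Ifitm6, chr7:140955912-140956211 for Ifitm2 and chr7:141010695-141010994 for Ifitm3.
Ifitm1: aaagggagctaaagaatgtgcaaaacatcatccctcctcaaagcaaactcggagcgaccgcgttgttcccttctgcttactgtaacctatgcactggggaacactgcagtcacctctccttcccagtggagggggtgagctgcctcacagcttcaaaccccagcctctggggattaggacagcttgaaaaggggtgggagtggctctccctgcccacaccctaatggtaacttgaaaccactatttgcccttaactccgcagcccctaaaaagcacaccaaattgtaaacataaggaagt
Ifitm6: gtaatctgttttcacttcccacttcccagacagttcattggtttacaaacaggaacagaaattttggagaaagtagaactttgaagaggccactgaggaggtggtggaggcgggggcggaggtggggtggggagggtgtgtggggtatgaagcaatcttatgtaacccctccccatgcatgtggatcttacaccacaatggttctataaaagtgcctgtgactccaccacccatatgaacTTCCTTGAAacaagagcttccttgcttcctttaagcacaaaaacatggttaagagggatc
Ifitm2: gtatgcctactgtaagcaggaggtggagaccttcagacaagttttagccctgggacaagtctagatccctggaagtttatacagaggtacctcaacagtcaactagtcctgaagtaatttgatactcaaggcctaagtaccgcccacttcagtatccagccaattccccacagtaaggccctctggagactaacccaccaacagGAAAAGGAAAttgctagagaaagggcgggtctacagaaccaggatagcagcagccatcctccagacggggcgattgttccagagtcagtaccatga
Ifitm3: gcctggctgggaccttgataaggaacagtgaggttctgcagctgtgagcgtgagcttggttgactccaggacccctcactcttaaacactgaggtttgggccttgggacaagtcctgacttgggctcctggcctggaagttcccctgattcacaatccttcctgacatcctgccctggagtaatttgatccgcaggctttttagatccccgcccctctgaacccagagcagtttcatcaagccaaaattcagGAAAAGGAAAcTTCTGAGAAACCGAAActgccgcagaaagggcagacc

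The interferon element was matched in the windows of Ifitm2 and Ifitm3 and not in those of Ifitm1 and Ifitm6. Ifitm2 held it once, as GAAAAGGAAA with its first base at -46. Ifitm3 held it at 3 and at 20 bases from the start, as GAAAAGGAAA and GAAACCGAAA. The gamma-activated site was matched at 14 in Ifitm3, where it overlaps the second interferon element, and at -10 in Ifitm6. Over 32851 RefSeq windows of the same length, 3.44% held the interferon element and 8.30% the gamma-activated site. Of the tested type I interferon response genes with a window, 10 of 22 held the interferon element. The C/EBP core TTGCNNAA and the PU.1 core GAGGAAG, searched for factors of myeloid cells, were in none of the 4 windows and in 10.8% and 13.6% of all windows. For Ifitm1 and Ifitm2 the start used lies inside the RefSeq gene span, so the windows do not cover every annotated start. A match is a likeness of letters and no match speaks only of these windows.

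The arrays were on a common scale, with median intensities from 113.2 to 116.1, and none duplicated another: arrays of 1 group differed by a root mean square of 0.17 to 0.28 on the log2 scale over tested genes. Alveolar epithelial markers were bright on every array, with a summed intensity over 13 genes of 91918 to 105601 in 4T1, 93349 to 106599 in 67NR and 93747 to 106049 in normal lungs.

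Ifitm1 was about 2 times as bright in 4T1 lungs as in the other groups. Its intensity was 4897, 4080.0, 5332 and 4386 in 4T1 replicates 1 to 4. It was 2414, 2164, 2377, 2268 and 2251 in 67NR replicates 1 to 5, and 2139.8, 2116, 2322, 2416 and 2186 in normal replicates 1 to 5. Every 4T1 array lay above every 67NR and every normal array, while the 67NR and normal arrays overlapped. Of all genes tested, 2.35% had every 4T1 array above every 67NR array and 1.4% had every 4T1 array above every normal array. The group means were 4674 ± 553 in 4T1 (SD, n = 4), 2295 ± 101 in 67NR (SD, n = 5) and 2236 ± 129 in normal lungs (SD, n = 5). On the scale of log2(intensity + 16), which understates the change of dim genes, the change was 1.05 in 4T1 against normal lungs (SE 0.071, 95% interval 0.90 to 1.21), or 2.07-fold. Against 67NR lungs it was 1.01 (SE 0.071, 95% interval 0.86 to 1.17), or 2.02-fold.

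Ifitm6 was also higher in 4T1 lungs, with a wider spread. Its intensity was 653, 329, 845 and 781 in 4T1 replicates 1 to 4. It was 356, 226, 216, 227 and 274 in 67NR replicates 1 to 5, and 235, 177, 127, 251 and 216 in normal replicates 1 to 5. The 4T1 arrays lay above all normal arrays, but 4T1 replicate 2 lay below 67NR replicate 1, so these groups overlapped. The group means were 652 ± 229.8 in 4T1 (SD, n = 4), 259.9 ± 58.2 in 67NR (SD, n = 5) and 201 ± 49.8 in normal lungs (SD, n = 5). The log2 change was 1.57 in 4T1 against normal lungs (SE 0.25, 95% interval 1.03 to 2.11), or 2.97-fold. It was 1.22 in 4T1 against 67NR lungs (SE 0.25, 95% interval 0.68 to 1.75), or 2.32-fold. Without 4T1 replicate 2 these changes were 1.86 and 1.51.

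Ifitm2 differed little between groups. Its intensity was 6322, 6077, 6066 and 6422 in 4T1 replicates 1 to 4. It was 6191, 6046, 5811, 5941 and 6128 in 67NR replicates 1 to 5, and 6106, 5936, 6042, 5956 and 5466 in normal replicates 1 to 5. The groups overlapped, and normal replicate 5 was the lowest array of all. The log2 change was 0.077 in 4T1 against normal lungs (95% interval -0.015 to 0.17) and 0.047 in 4T1 against 67NR lungs (95% interval -0.045 to 0.14).

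Ifitm3, the member best known for restricting influenza virus, likewise had nearly the same intensity on every array. It was 9559, 9099.6, 9628 and 9849 in 4T1 replicates 1 to 4. It was 10048, 9943, 9549.7, 9321 and 10114 in 67NR replicates 1 to 5, and 10010.3, 9447, 9451, 9430.1 and 9387 in normal replicates 1 to 5. The lowest array was a 4T1 lung and the highest a 67NR lung, and the groups overlapped throughout. The log2 change was -0.0018 in 4T1 against normal lungs (95% interval -0.091 to 0.087) and -0.039 in 4T1 against 67NR lungs (95% interval -0.13 to 0.050). The brightest probe set of each array stood between 15073 and 16357, so Ifitm3 was not at the top of the scale. Whether signals as bright as those of Ifitm2 and Ifitm3 understate changes was not tested. Whether probes of these similar genes also bind each other's RNA was not tested.

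**Figure D1:**
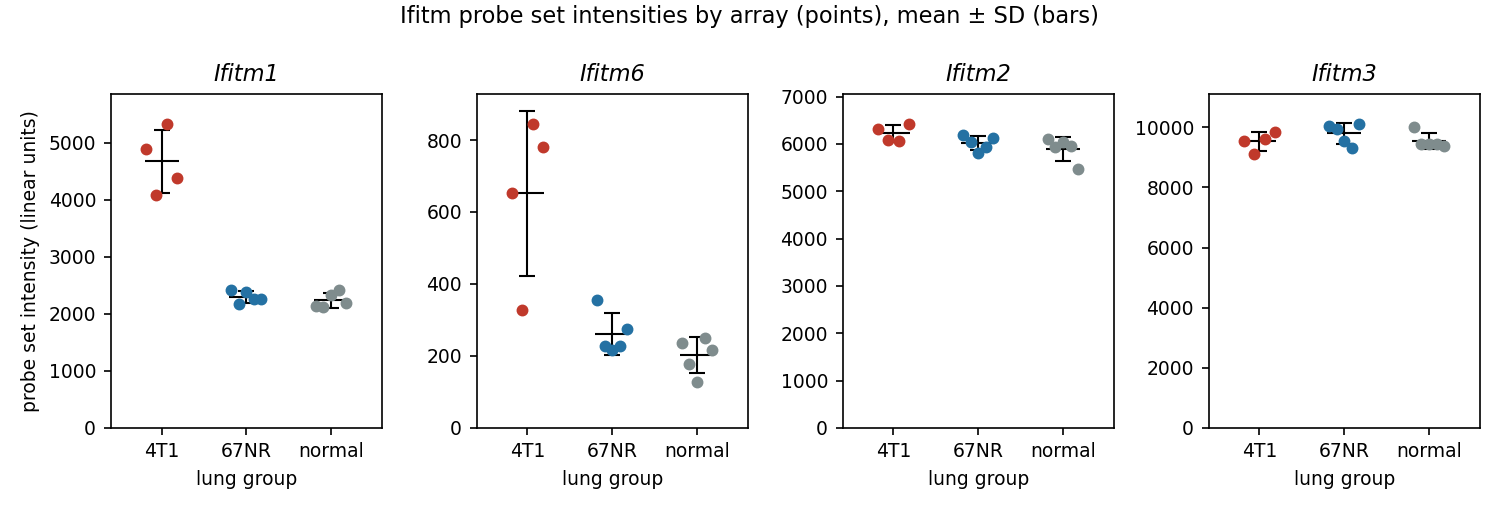
Intensity (linear units) of the probe sets of Ifitm1, Ifitm6, Ifitm2 and Ifitm3 in 4T1, 67NR and normal lungs, with 1 point per array and bars for the group mean ± SD. For Ifitm1 the 4 4T1 arrays stand apart at 4080.0 to 5332, for Ifitm6 3 of the 4 do, and for Ifitm2 and Ifitm3 the groups overlap.

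The members therefore fell into 2 higher and 2 little changed genes in 4T1 lungs. In the limma fit across all genes, Ifitm1 and Ifitm6 were among those called higher in 4T1 against normal lungs at an adjusted p under 0.05, as were 0.412% of all genes tested. They ranked 21 and 12 of 10916 by the size of the log2 change. Both were also called higher against 67NR lungs, where 0.76% of all genes were called, 0.559% as higher and 0.202% as lower. Over all probe sets with 1 symbol and no level filter, 2 of the 4 were called higher against normal lungs (0.174% of all), 1, Ifitm1, against 67NR lungs (0.169% of all) and 0 in 67NR against normal lungs (0.00286% of all). These counts rest on the contrast that brought the family up, and nothing is read from them. The Ifitm6 call was lost against normal lungs in a fit of these groups alone, at the same change of 1.57. Against 67NR lungs it was lost in 13 of 25 alternatives, among them the fits without 4T1 replicate 1, 3 or 4, without 67NR replicate 2, 3 or 4 and without normal replicate 1, 2 or 5, with changes of 1.07 to 1.22. Over 26 alternatives the log2 change of Ifitm1 ran between 0.99 and 1.12 against normal and between 0.95 and 1.08 against 67NR lungs.

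In 67NR against normal lungs no member passed. No member had every 67NR array above every normal array, as 0.852% of all genes did. limma called 0 of the 4 members, 0 of them had an unadjusted p under 0.05, and 0% of all genes were called, with 997 of 10916 at an unadjusted p under 0.05. The log2 change was 0.038 for Ifitm1 (SE 0.067, 95% interval -0.11 to 0.18, limma adjusted p = 0.901). It was 0.030 for Ifitm2 (SE 0.040, 95% interval -0.056 to 0.12, limma adjusted p = 0.865) and 0.037 for Ifitm3 (SE 0.039, 95% interval -0.047 to 0.12, limma adjusted p = 0.833). For these 3 genes the intervals leave room for ratios of 67NR to normal lungs between 0.929 and 1.13. For Ifitm6 it was 0.36 (SE 0.24, 95% interval -0.15 to 0.86, limma adjusted p = 0.700), so a rise of up to 1.82-fold lies within its interval. The highest 67NR array for Ifitm6, replicate 1, was also the highest 67NR array for the summed neutrophil and monocyte markers described below. It was likewise the highest for the summed T and NK cell, B cell and fibroblast markers and the enzymes and partners of IFITM proteins.

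**Figure D2:**
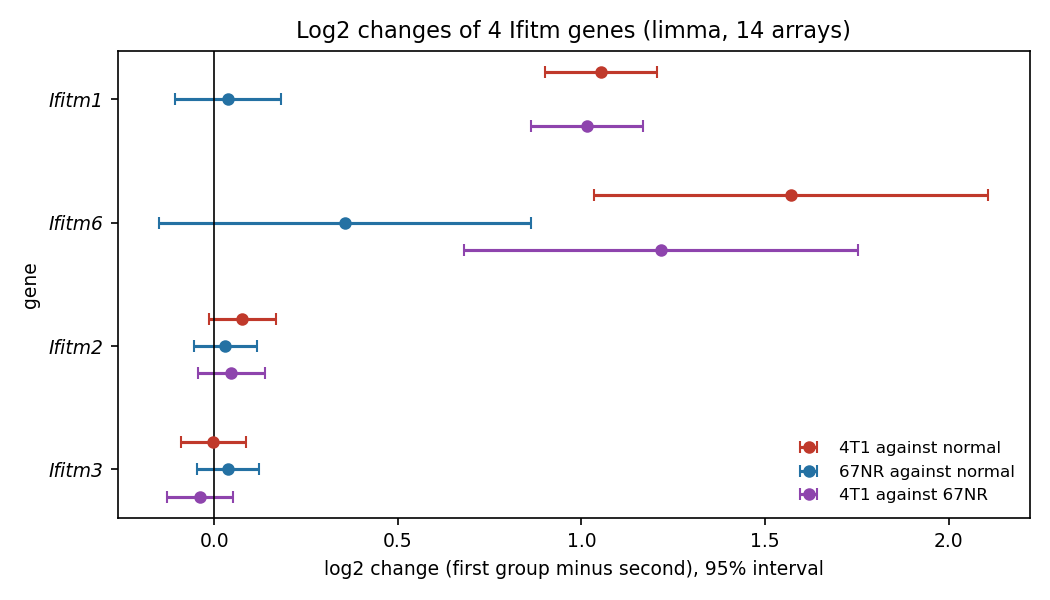
Log2 change (x axis, first named group minus second) of each Ifitm gene (y axis) in 3 comparisons, with points for the limma estimate over 14 arrays and bars for the 95% interval. The intervals of Ifitm1 and Ifitm6 lie above 0 in both comparisons with 4T1 lungs, and those of Ifitm2 and Ifitm3 span 0 in all 3 comparisons.

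Genes that interferons induce alongside the Ifitm family did not pass in 4T1 lungs. Over all genes tested, an unadjusted p under 0.05 was reached by 716 of 10916 (6.56%) in 4T1 against normal, 997 (9.13%) in 67NR against normal and 1358 (12.4%) in 4T1 against 67NR lungs, which is the background to the counts below. Of 29 tested type I interferon response genes, limma called 0 in 4T1 against normal lungs, 1 had an unadjusted p under 0.05, and 15 had positive and 14 negative changes. Their median log2 change was 0.0019, beside -0.00077 over all genes tested. Ifit1 and Ifit3, which bind viral RNA or help do so, had log2 changes of -0.0034 and 0.086. Irf7, the transcription factor that amplifies interferon production, had one of 0.080 and the virus tether Bst2 one of -0.10. The largest was that of Oasl1, an oligoadenylate synthetase relative, at 0.42 (SE 0.15, limma adjusted p = 0.588). The antiviral radical SAM enzyme Rsad2 had a change of 0.40 (SE 0.27). Isg15 and Ly6c2 were not analysed here and Mx1 lay under the level filter.

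The other interferon lists had no gene past the threshold either. Of 16 tested interferon gamma response genes, limma called 0 in 4T1 against normal lungs and 0 had an unadjusted p under 0.05. Their median log2 change was -0.0042, from -0.20 for the GTPase Iigp1 to 0.056 for Nlrc5, the activator of MHC class I genes. Of 17 tested receptors, kinases and factors of interferon signalling, 0 were called and 1 had an unadjusted p under 0.05. That list's median was -0.024, and the receptor genes Ifnar1, Ifnar2, Ifngr1 and Ifngr2 had log2 changes of 0.0078, -0.058, 0.12 and 0.023.

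In 67NR against normal lungs the type I response genes had a median log2 change of 0.040, with 23 of 29 positive, 0 called by limma and 1 at an unadjusted p under 0.05. The interferon gamma response genes had a median of 0.11, with 13 of 16 positive, 0 called by limma and 1 at an unadjusted p under 0.05, and led by the guanylate-binding protein Gbp6 at 0.54 (SE 0.15, limma adjusted p = 0.300). In 4T1 against 67NR lungs 15 of these 16 genes had negative changes (median -0.13) and 22 of the 29 type I genes did (median -0.037), with 0 called by limma in either list. At an unadjusted p under 0.05 there were 2 of the 16 and 3 of the 29, beside 12.4% of all genes. Over all genes tested the median log2 change in 4T1 against 67NR lungs was -0.00079. No list was tested as a set, so the counts of signs are descriptions. Ifitm1 and Ifitm6 had positive changes in that comparison, which belong to the values that brought the family up.

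Genes that share the location, the fold or the handling of IFITM proteins did not pass either. Of 8 tested genes around the cluster, among them Pgghg next to Ifitm5 and Pkp3 beyond Ifitm6, limma called 0 in any of the 3 comparisons and 0 had an unadjusted p under 0.05. Their log2 changes in 4T1 against normal lungs ran from -0.069 to 0.065. Of 5 other dispanin genes tested, 0 were called in any comparison and 0 had an unadjusted p under 0.05. Ifitm5, which is known from bone-forming cells, was dim and had a log2 change of -0.19 in 4T1 against normal lungs (SE 0.22). Ifitm7 had one of -0.20 (SE 0.46) and Ifitm10 one of 0.058 (SE 0.099). Of 10 tested enzymes and partners, such as the ubiquitin ligase Nedd4 that marks IFITM3 for breakdown and the tetraspanin Cd81 that binds IFITM1, 0 were called and 0 had an unadjusted p under 0.05 in any comparison. Nedd4 and Cd81 had log2 changes of -0.016 and -0.045 in 4T1 against normal lungs.

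**Figure D3:**
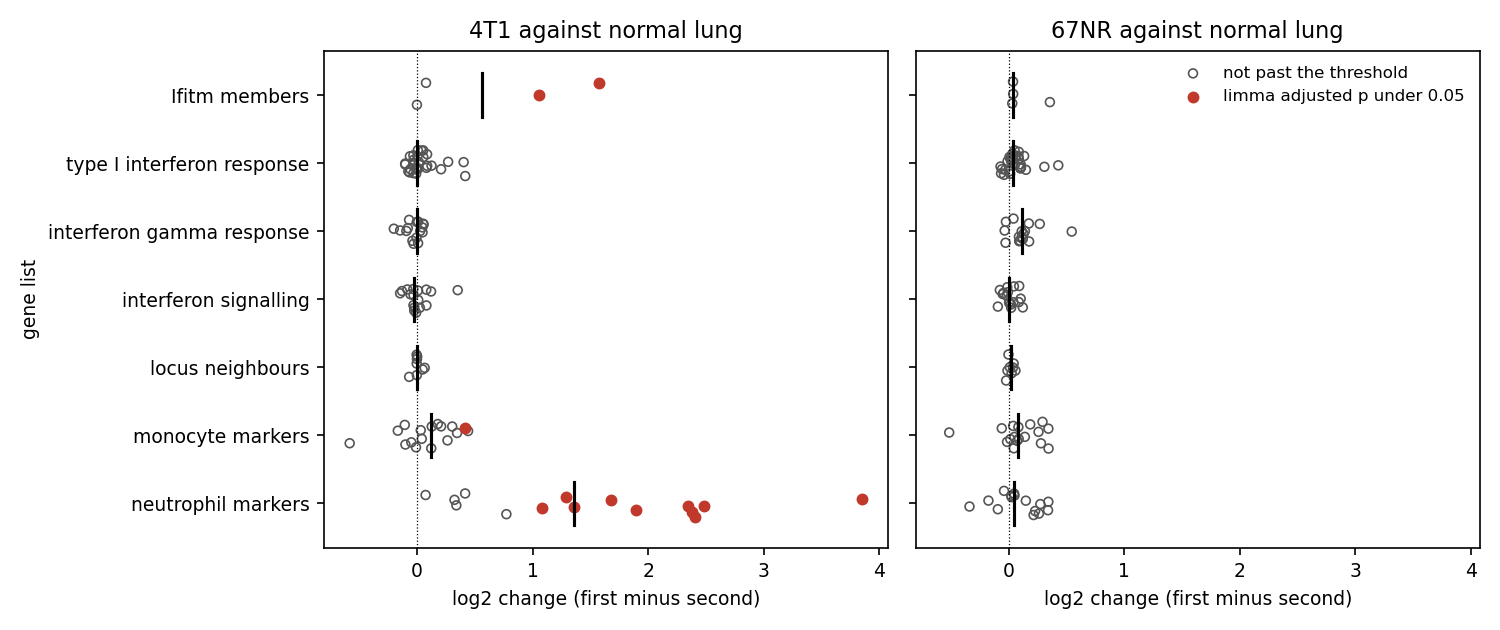
Log2 changes (x axis) of each tested gene of 7 gene lists (y axis) in 4T1 and in 67NR against normal lungs, with filled points for genes past the limma threshold, open points for the others and black bars for list medians. In 4T1 against normal lungs limma called 2 Ifitm genes, 10 of 15 neutrophil markers and 1 of 17 monocyte markers, beside 0.412% of all genes tested. The interferon lists and the locus neighbours had 0 called. The Ifitm calls restate the contrast that led to the choice of the family.

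Neutrophil markers were, like Ifitm1 and Ifitm6, higher in 4T1 lungs. Of 28 listed markers, 21 had a value and 15 were bright enough to be tested. The level filter used the mean over all arrays, so a marker bright only in 4T1 lungs could pass through that group. Of the 15 tested markers, 10 rose in 4T1 against normal lungs in limma and 0 fell, with a median log2 change of 1.36. Clec4d, a C-type lectin of myeloid cells, changed by 1.68, the collagenase gene Mmp8 by 1.36, S100a9 and S100a8 by 2.48 and 2.38, Cxcr2 by 2.41 and Csf3r by 1.89. Their summed intensity was 30585 to 41015 in 4T1, 10787 to 14548 in 67NR and 9331 to 13745 in normal lungs, so 4T1 lungs did not overlap the others. Among 4T1 arrays, replicate 2 was lowest for Ifitm1, Ifitm6, Ifitm3 and this sum, and also for the summed type I interferon, interferon gamma, interferon signalling, monocyte, T and NK cell, B cell, red cell and platelet, and locus neighbour genes. No value here says in which cells the Ifitm RNA lay, and the part of neutrophils in the higher Ifitm1 and Ifitm6 was not tested.

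Of the monocyte markers 1 passed. Among 17 tested, the Fc receptor Fcgr4 rose in 4T1 against normal lungs by 0.41 (limma adjusted p = 0.0475), 16 did not pass, 4 had an unadjusted p under 0.05 and the median was 0.12. Of the 17 changes 11 were positive and 6 negative, from -0.58 for the nuclear receptor gene Nr4a1 to 0.44 for Plac8. The chemokine receptor Ccr2 had a log2 change of 0.35, which did not pass (limma adjusted p = 0.954). Their summed intensity was 29143 to 32876 in 4T1, 29458 to 35051 in 67NR and 29792 to 32668 in normal lungs. The summed endothelial markers, of cells that carry much Ifitm3 in many tissues, were at 42614 to 46422 in 4T1, 43347 to 50232 in 67NR and 40672 to 48841 in normal lungs. Of 13 endothelial, 7 alveolar macrophage, 12 T and NK cell and 8 B cell markers limma called 0 in 4T1 against normal lungs, with 2, 1, 1 and 0 at an unadjusted p under 0.05. Of 10 fibroblast, 13 alveolar epithelial and 5 red cell and platelet markers it also called 0, with 0, 1 and 1. The summed red cell and platelet markers were uneven, at 2600 to 3823 in 4T1, 2325 to 5337 in 67NR and 1822 to 3811 in normal lungs.

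For Ifitm6 the 6 genes with the most similar pattern over the 14 arrays were listed. Likeness was the root mean square difference between log2 levels, each relative to its mean in normal lungs, over all genes tested. The closest was Il1b, the cytokine interleukin 1 beta, at 0.29, followed by the G-CSF receptor gene Csf3r at 0.35, Clec4d at 0.36, the metalloproteinase genes Mmp9 at 0.39 and Mmp8 at 0.40, and the chemokine receptor gene Ccr1 at 0.42. Csf3r, Clec4d, Mmp9 and Mmp8 are also in the neutrophil list, and Il1b and Ccr1 are in none of the lists. The measure includes the rise in 4T1 lungs for which Ifitm6 was chosen, so it is a description.

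**Figure D4:**
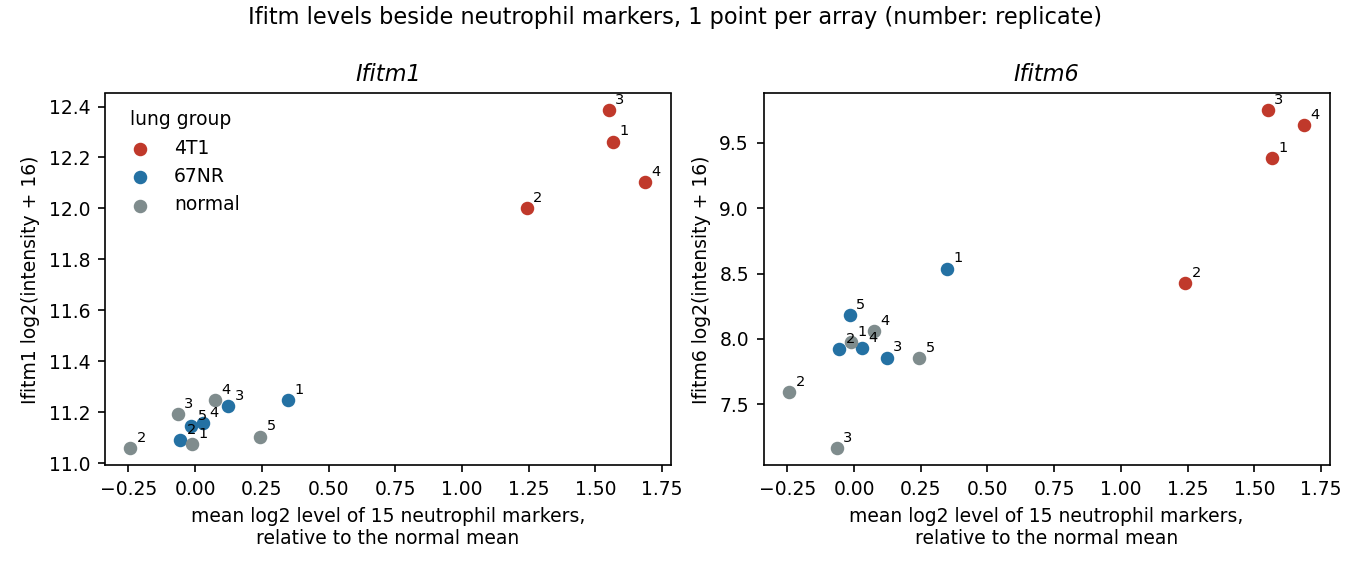
Ifitm1 and Ifitm6 log2 levels (y axes) beside the mean log2 level of 15 neutrophil markers relative to normal lungs (x axes), with 1 point per array, coloured by group and numbered by replicate. The 4T1 arrays lie to the right at 1.24 to 1.69, and the 67NR and normal arrays between -0.24 and 0.35.

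Deviations from the group means, which the choice of the family did not use, were compared over the 14 arrays in 14 relations: between the members, and of each member with the mean of the 29 type I interferon genes and with that of the 15 neutrophil markers. By permutation within groups (100000 resamples, two-sided) 0 of 14 passed after Benjamini-Hochberg adjustment of Pearson's r, and 5 had an unadjusted p under 0.05. The strongest was Ifitm6 with the neutrophil mean (r = 0.71, permutation p = 0.0153, adjusted p = 0.0823; rho = 0.74, permutation p = 0.00980, adjusted p = 0.0686; r = 0.63 without the 2 arrays farthest from the median of Ifitm6). Without 67NR replicates 1 and 3 it had r = 0.70 (permutation p = 0.0620, adjusted p = 0.176). Within 67NR lungs alone its r was 0.73 with all arrays and -0.016 without these replicates, which leaves only replicates 2, 4 and 5. The recorded day and tumour volume do not set replicates 1 and 3 apart from the other 67NR lungs. Next was Ifitm3 with the interferon mean (r = 0.66, permutation p = 0.0202, adjusted p = 0.0823; rho = 0.65, permutation p = 0.0266, adjusted p = 0.124; r = 0.59 without the 2 farthest arrays). Under quantile normalization this relation fell to r = 0.39 (permutation p = 0.165, adjusted p = 0.289). Ifitm3 and Ifitm6, neighbours on the chromosome, had r = 0.64 (permutation p = 0.0235, adjusted p = 0.0823; rho = 0.56, permutation p = 0.0586, adjusted p = 0.205; r = 0.69 without the 2 farthest arrays).

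Ifitm6 with the interferon mean was also under 0.05 unadjusted (r = 0.58, permutation p = 0.0226, adjusted p = 0.0823; rho = 0.47, permutation p = 0.103, adjusted p = 0.282; r = 0.39 without the 2 farthest arrays). Ifitm1 with the neutrophil mean had r = 0.48 (permutation p = 0.125, adjusted p = 0.292; rho = 0.48, permutation p = 0.121, adjusted p = 0.282; r = 0.36 without the 2 farthest arrays). Ifitm1 and Ifitm6 had r = 0.53 (permutation p = 0.172, adjusted p = 0.344; rho = 0.37, permutation p = 0.292, adjusted p = 0.511), and r = 0.046 without the 2 farthest arrays, so that relation rested on them. Ifitm1 and the interferon mean had r = -0.023 (permutation p = 0.932, adjusted p = 0.986; rho = -0.22, permutation p = 0.409, adjusted p = 0.573; r = -0.41 without the 2 farthest arrays). Ifitm2 with Ifitm3 had r = 0.61 (permutation p = 0.0305, adjusted p = 0.0854; rho = 0.75, permutation p = 0.00586, adjusted p = 0.0686; r = 0.70 without the 2 farthest arrays). Under quantile normalization it fell to r = 0.33 (permutation p = 0.250, adjusted p = 0.366).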

How the data were processed

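Lung RNA of 14 mouse samples was measured on Affymetrix arrays from biotin-labelled cRNA, per the labels' protocols. The deposited table holds linear probe set intensities. The authors' summarisation, background correction and normalisation are not given in the sources used here. Detection calls were not used. Groups came from the sample titles.

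Gene symbols came from the 2016 platform annotation: 34958 carried 1 symbol and were used, 932 carried several and 9211 were unnamed here. Intensities were converted to log2(intensity + 16). The brightest probe set on average stood for each of 18194 genes, and genes in the upper 60% of mean level, above 7.35, were tested. limma 3.58.1 in R 4.3.3 (lmFit, eBayes) fitted 1 mean per group to all arrays, with 11 residual degrees of freedom before moderation. Benjamini-Hochberg adjustment ran over the 10916 genes tested, with a threshold of 0.05. The same model over all 34958 probe sets with 1 symbol and no level filter was run alongside. The number of arrays limits the precision. The fit was tested on simulated data.

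The members and the 16 gene lists were chosen with earlier results of these data known. Named genes were the members, genes of the lists past the threshold (up to 4 per list and comparison), a fixed set of interferon and myeloid genes, and the 6 genes most like Ifitm6. The largest and smallest changes of a list, and single receptors, neighbours and regulators, were named after their values were seen. Relations used Python 3.11.15 and numpy 2.4.6. Promoter sequences and gene order are from RefSeq (GRCm38.p6), and no coordinates of the array annotation were used.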

Additional observations from a re-analysis of the deposited data

Results flagged for a closer look

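Among 27 sets of values of 1 group, 2 held an array set apart from the others by more than Dixon's 95% limit, which chance passes in about 1 of 20. Ifitm2 in normal replicate 5 was low, at a log2 level of 12.42, with a gap of 0.746 of the group's range. Ifitm3 in normal replicate 1 was high, at 13.29, with a gap of 0.896 of the range. Without normal replicate 5 the log2 change of Ifitm2 in 4T1 against normal lungs was 0.050, and without normal replicate 1 that of Ifitm3 was 0.015.

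The change against normal lungs differed between the tumour lines for Ifitm1, by 1.01 on the log2 scale, and for Ifitm6, by 1.22. Since both changes share the normal arrays, each difference is that of 4T1 against 67NR lungs. It belongs to the values that brought the family up and is a description, and the limma call for Ifitm6 was lost in 13 of 25 alternatives.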

How the results depend on the processing

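Each change was recomputed in 26 alternatives, 14 of which left out 1 array. The values of members in comparisons with 4T1 lungs are those that brought the family up, so their calls show no independent stability. Ifitm1 was called in all 26. Ifitm6 was not among the genes in the upper 40% of level, so 25 alternatives gave it a value, with positive changes of 1.38 to 1.86 against normal and 1.07 to 1.51 against 67NR lungs. Against normal lungs its call was lost with only the 2 groups compared (1.57). Against 67NR lungs it was lost without a filter (1.22), with only the 2 groups compared (1.22), without 67NR replicates 1 and 3 (1.29), and in the 9 fits without 1 array named above (range over all 14 such fits 1.07 to 1.51). The cause of these losses was not tested. In 67NR against normal lungs 0 of 4 members passed in any alternative, and the change of Ifitm6 was 0.21 to 0.44. The change of Ifitm3 in 4T1 against normal lungs, near 0, had the opposite sign in 6 alternatives (-0.018 to 0.020).

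Of the 4 members, 1 in place of 2 was called against normal lungs with the upper 40% of genes or only the 2 groups compared, and 2 in each fit without 1 array. Against 67NR lungs 1 was called without a filter, with the upper 40%, with only the 2 groups compared or without 67NR replicates 1 and 3, and 1 to 2 without 1 array. With all probe sets tested and no filter, 2 were called against normal lungs, but 1 with only these groups, without 67NR replicates 1 and 3 or in 12 of 14 fits without 1 array (range 1 to 2). Against 67NR lungs 1 was called, and 1 to 2 without 1 array (2 without 4T1 replicate 2).

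Same-numbered arrays of different groups were not treated as paired. Their deviations correlated at -0.34 to 0.22 over 13 pairs (median 0.035), with 3 above 0.1. Differently numbered arrays correlated at -0.28 to 0.36 over 52 pairs (median -0.020), with 19 above 0.1. These ranges cannot show that no pairing existed. With the replicate number as a block, Ifitm6 against 67NR lungs was 1.24 and lost its call, which left 1 member called there and 1 among probe sets against normal lungs.

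Over all genes, 45 were called against normal lungs, 26 with the upper 40% and 29 with only the 2 groups. In 67NR against normal lungs 0 were called, 1 without a filter and 11 without 67NR replicates 1 and 3. In 4T1 against 67NR lungs 83 were called, 184 with array weights, 50 with only the 2 groups, 48 without 67NR replicates 1 and 3, 41 without 4T1 replicate 1, 46 without 4T1 replicate 4, 55 without 67NR replicate 2 and 168 without 67NR replicate 5. Quantile normalization moved the relations past the threshold to 2 of 14, against 0: Ifitm3 with Ifitm6 (r = 0.82, permutation adjusted p = 0.0197) and Ifitm3 with the neutrophil mean (r = 0.74, permutation adjusted p = 0.0333). In the same setting Ifitm3 with the interferon mean fell to r = 0.39 and Ifitm2 with Ifitm3 to r = 0.33, so these relations depended on the scaling.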

Other observations

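Apart from Ccr1, the 6 genes nearest to Ifitm1 by the same measure over the 14 arrays differed from those nearest to Ifitm6. This search was added after the Ifitm1 values were seen. The measure includes the size of the rise in 4T1 against normal lungs (1.05 for Ifitm1, 1.57 for Ifitm6), so it is a description. The closest were Pla2g7, a phospholipase that cleaves platelet-activating factor, at a root mean square log2 difference of 0.13, the metalloreductase gene Steap4 at 0.13, the inhibitory myeloid receptor gene Cd300lf at 0.14, Ccr1 at 0.15, the peptidoglycan-binding protein gene Pglyrp1 at 0.16 and Lrg1 at 0.19. Their log2 changes in 4T1 against normal lungs were 0.999 for Pla2g7, 1.15 for Steap4, 0.94 for Cd300lf, 1.09 for Ccr1, 1.08 for Pglyrp1 and 0.83 for Lrg1. Ccr1 is the one gene among the 6 nearest to both Ifitm1 and Ifitm6. Of the 6 nearest to Ifitm1, Pglyrp1 is also in the neutrophil list and the others are in none of the lists.

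Ifitm7, a family member on chromosome 16, had its lowest intensity in 67NR replicate 4, at 23.1. It was 118 to 296 in the other 67NR lungs, 151 to 237 in 4T1 lungs and 137 to 340.0 in normal lungs. On the log2 scale this array was not past Dixon's limit, with a gap of 0.594 of the group's range against a limit of 0.71.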
